A study of Homo sapiens with 18 samples.

Results

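A gained junction is here a probe set for a splice junction whose signal was far higher in cells given the splicing factor TRA2A than in control cells, while paclitaxel-treated cells stayed near the control level. Of 339146 junction probe sets on the array, 625 were chosen, or 0.184%. The junctions were selected on the 231T, PTX and control values themselves. A junction was taken when the mean of the 231T arrays exceeded the mean of the control arrays by at least 4 on the deposited log2 scale, when the lowest 231T array lay above the highest control array, and when the PTX mean lay within 1 of the control mean. Both comparisons were used to choose the junctions, so the junctions' own differences are given below as a description with no test.

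All 3 groups were MDA-MB-231, an established triple-negative breast cancer line, grown in Dulbecco's medium with fetal bovine serum, and each group had 3 exon-level arrays. The 231T cells carried exogenous TRA2A from a vector whose promoter and clonality the labels do not describe. The PTX cells were exposed to medium with 10 nM paclitaxel, which blocks mitosis by stabilising microtubules, and the labels give no exposure time. The third group is labelled as control, with no mention of an empty vector. The text label of 2 control arrays gives another line name, while their source and cell line fields give MDA-MB-231. Whether the 3 arrays per group stand for 3 cultures is not labelled, and the p-values below then measure only the spread between arrays, which may be technical.

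TRA2A binds purine-rich sequences in exons through its RNA recognition motif and promotes the use of those exons, and it works together with its close relative TRA2B and with the SR proteins. A junction probe set spans the seam where 2 exons are joined, so its signal depends both on how much RNA a gene makes and on how often that particular seam is formed. An exon-part probe set lies within an exon and follows the RNA level more directly. In bulk RNA, more cells with a junction and more of it per cell cannot be told apart. The same arrays also carry a gene-level table, from which 1 value per gene symbol was taken, so that a junction could be set beside its gene. The files used here hold no probe sequences and no coordinates, so positions are given by chromosome code and by the running number in the probe set name.

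The label of the overexpressing cells was checked on TRA2A itself. Its gene-level value was 9.37, 9.42 and 9.19 in the 231T arrays, 8.32, 7.82 and 7.60 in the PTX arrays and 6.50, 7.15 and 6.95 in the control arrays, so that the 3 groups did not overlap. 231T exceeded control by 2.46 ± 0.21 (SE; limma adjusted p = 0.000266), and the PTX minus control difference was 1.04 (limma adjusted p = 0.0539). Genes that mark this line had the levels the line is known for: VIM averaged 13.12 in 231T, 13.13 in PTX and 13.16 in control arrays, and the group means of CD44, FN1 and AXL lay between 8.82 and 15.97, whereas those of ESR1, PGR, EPCAM and CDH1 lay between 3.56 and 4.94. ERBB2 had no gene-level value of its own. Over all junctions the 231T arrays ran low, with a median difference from control of -0.23. On each array 1.32% to 1.42% of the deposited values exceeded 16, and its highest value was shared by 764 to 1386 probe sets, so the largest differences are differences of deposited values and not folds of RNA.

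One property of the tables touches every difference below. For the 2995 probe sets found in both the exon-level and the gene-level table, the 231T values were equal within 0.0006 in 100% of the probe sets. The PTX values were equal in 0.712% and the control values in 0.991%, with differences of up to 2.46 for PTX and 2.11 for control. The 231T arrays were therefore on the same scale in both tables, and the PTX and control arrays were not. Placing the PTX and control arrays on the gene-level scale, which was chosen after seeing the data, gave 940 gained junctions that held 614 of the 625.

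The 10 gained junctions with the largest difference lay mostly in genes whose own gene-level value was within 1 of control. The largest was junction JUC04005683.hg.1 of TRIM2, which encodes a RING-type ubiquitin ligase. It had values of 19.47, 19.43 and 19.32 in the 231T arrays, against 3.07, 3.12 and 2.65 in the PTX arrays and 3.40, 3.57 and 3.25 in the control arrays. This was a difference of 16 between 231T and control. The TRIM2 gene as a whole averaged 4.97 in 231T, 4.90 in PTX and 4.71 in control arrays, a 231T minus control difference of 0.26.

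SLC29A4, which encodes a plasma membrane monoamine transporter, showed the same contrast between a junction and its gene. Its gained junction had 18.74, 18.98 and 19.89 in the 231T arrays, 5.46, 6.04 and 5.65 in the PTX arrays and 5.97, 5.75 and 5.86 in the control arrays. The SLC29A4 gene-level value was 4.57 in 231T, 4.83 in PTX and 4.87 in control arrays. CRMP1, a phosphoprotein of the semaphorin response in axon guidance, had a junction at 14.11, 13.18 and 15.02 in the 231T arrays, against 3.43, 3.89 and 4.08 in the PTX arrays and 4.35, 2.95 and 2.27 in the control arrays. None of the 231T arrays came near the range of the other groups in these 3 junctions.

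In PNPLA7, a lysophospholipase of the endoplasmic reticulum, the junction already had signal in cells without exogenous TRA2A. It had 19.78, 19.65 and 19.89 in the 231T arrays, 10.14, 10.72 and 9.92 in the PTX arrays and 9.94, 9.12 and 9.13 in the control arrays. The value of 19.89 in 231T replicate 3 was the highest on that array, and it was shared by 1386 probe sets, 4 of them gained junctions (PNPLA7, SLC29A4, TFRC and LDHB). The remaining 6 of the 10 were junctions of FSD2, DUSP3, ZFP57, DMBT1, TTC40 (now CFAP46) and SSPO (now SSPOP), with differences of 10.28, 9.82, 9.65, 9.42, 9.30 and 9.03. DUSP3 is a dual-specificity phosphatase, ZFP57 a zinc finger protein that keeps methylation at imprinted loci, and DMBT1 a secreted scavenger receptor glycoprotein. Of the 10, all 8 with a gene-level value had a gene-level difference between -0.33 and 0.82. Their gene-level control means ran from 3.89 (FSD2) to 7.64 (DUSP3), against a median of 4.87 over all genes with junctions.

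**Figure D1:**
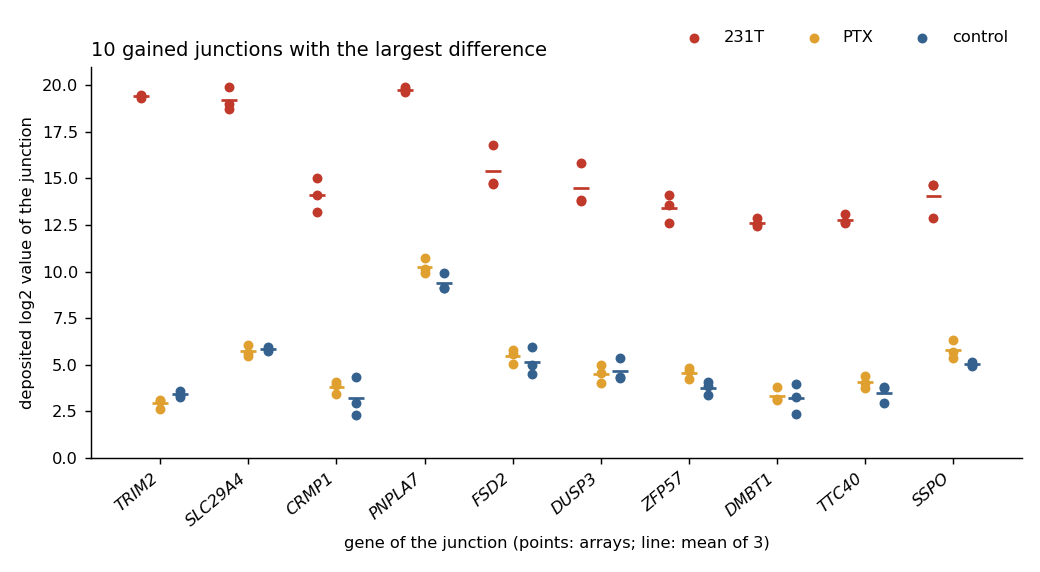
Deposited log2 values of the 10 gained junctions with the largest difference, with 1 point per array, a line at the mean of 3 arrays, and groups in the order 231T, PTX, control. The lowest 231T point is 12.45, and the PTX and control points of each junction lie close together, with PNPLA7 the highest of them.

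The ZFP57 junction was present 7 times, with identical values, because the array carries it on code 6 and on 6 alternative versions of chromosome 6. Such copies are not separate observations: 22 gained junctions shared all their values with another and 603 did not, and keeping 1 of each identical group left 610. Of the 625, 566 could be named by 1 gene symbol, covering 442 genes, 24 carried several symbols and 35 none. All 442 symbols were found in RefSeq, 409 as current symbols and 33 as a synonym. The chromosome code matched the RefSeq chromosome of the gene in 565 of the 566.

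Most gained junctions were smaller steps than these 10. The median difference between 231T and control was 4.59, the quartiles were 4.22 and 5.30, and 431 of 625 lay between 4 and 5. Only 28 differed by 8 or more, with each identical copy of the ZFP57 junction counted. The median of the 625 junctions was 12.20, 12.23 and 12.16 in the 231T arrays, against 8.05, 7.03 and 7.21 in the PTX arrays and 6.91, 7.36 and 6.84 in the control arrays. The 231T arrays were close to each other, and PTX replicate 1 stood above the other PTX arrays. Gained does not mean absent in control: 466 of the 625 had a control mean at or above 4.95, the median level of all probe sets. The median control mean was 6.96 for gained junctions, against 5.28 for all junctions.

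The limit at 4 cut through a continuous range. Just inside it lay junctions of TMPO, FLNC and ANKRD11 and a pair of unnamed, identical probe sets on code 15, with differences of 4.00002 to 4.0040. Just outside it lay junctions of ITIH1, POGK, TFDP1, CHRNB1 and TNFRSF14, with differences of 3.9963 to 3.9997. The limit on PTX removed more than the limit on overlap. Of the 1008 junctions with a difference of at least 4 (0.297% of all junctions), 986 had no overlap between 231T and control arrays; 353 of these were left out because PTX was also higher by 1 or more, and 8 because PTX was lower by 1 or more.

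In the limma fit across all exon parts and junctions, 623 of the 625 passed the filter on low values and all 623 were called higher in 231T, against 8.55% of all probe sets tested (a further 23.1% were called lower) and 9.31% of the junctions tested; the rule used this contrast, so the count follows from it. None of the 623 was called between PTX and control (0.124% of all probe sets were), and 30 had an unadjusted limma p under 0.05, against 11.3% of all probe sets. For 623 of the 625, all PTX arrays lay below all 231T arrays, as they did for 11.2% of all junctions, and 623 were called lower in PTX than in 231T, as were 8.01% of all probe sets. The rule also held PTX near control and 231T far above it, so the PTX counts largely follow from the choice as well.

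The nearness of PTX to control was a property of means. PTX lay above control in 481 of the 625, with a median difference of 0.36, and PTX replicate 1 exceeded both other PTX arrays in 399 (63.8%), against 32.5% of all junctions. In members whose gene rose by more than 1, the median excess over control was 1.42 in PTX replicate 1, -0.20 in PTX replicate 2 and 0.12 in PTX replicate 3. In members whose gene stayed within 1, the same medians were 0.36, 0.27 and 0.13. Whether a PTX array counts as unchanged in the first kind of junction thus depended on which PTX array was read. Without PTX replicate 1 the rule chose 695 junctions, and without PTX replicate 2 it chose 545.

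To see the same measure in arrays that did not choose the junctions, the rule was applied with 1 replicate number of every group left out. It then chose 742, 604 and 652 junctions when replicates 1, 2 and 3 were left out. In the left-out arrays the median 231T minus control difference was 4.54, 4.04 and 4.26, and the difference was above 0 in 96.9%, 97.0% and 97.9% of the junctions, against 41.6%, 40.4% and 42.9% of all junctions. It was at least 4 in 65.5%, 51.0% and 57.2%, against 0.664%, 0.488% and 0.612% of all junctions. The left-out PTX array was within 1 of the left-out control array in 41.6%, 63.7% and 73.3%. The median PTX minus control difference was 1.10 for replicate 1, -0.10 for replicate 2 and 0.20 for replicate 3. No such share is given over all junctions, so how far the PTX condition carried over cannot be read from these values.

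Each junction was set beside its gene, and the members were divided at a gene-level difference of 1. This limit lay close to the median gene-level difference of the member genes, 0.93. With limits of 0.5 and 2, 323 and 150 gained junctions lay in genes above the limit. Of the 399 member genes with a gene-level value, 193 (48.4%) had a 231T value more than 1 above control, against 6.81% of the 16692 genes with junctions and a gene-level value, and 201 (50.4%) were within 1, against 90.2%. The remaining 5 were lower by more than 1. In numbers of junctions, 287 lay in raised genes, 222 in genes within 1, 5 in lowered genes, and 111 had no single gene-level value. Identical copies are counted here, and keeping 1 of each identical group left 287 in raised genes. At gene level 231 of 386 tested member genes were called higher in 231T (limma; 17.8% of all genes tested) and 26 were called lower (14.3%). Since 231 exceeds the 193 raised genes, some genes within 1 were called higher too, such as DUSP3 at 0.82 (limma adjusted p = 0.00618). The gene-level values come from the same arrays as the junction values, so these counts are not independent of the choice.

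**Figure D2:**
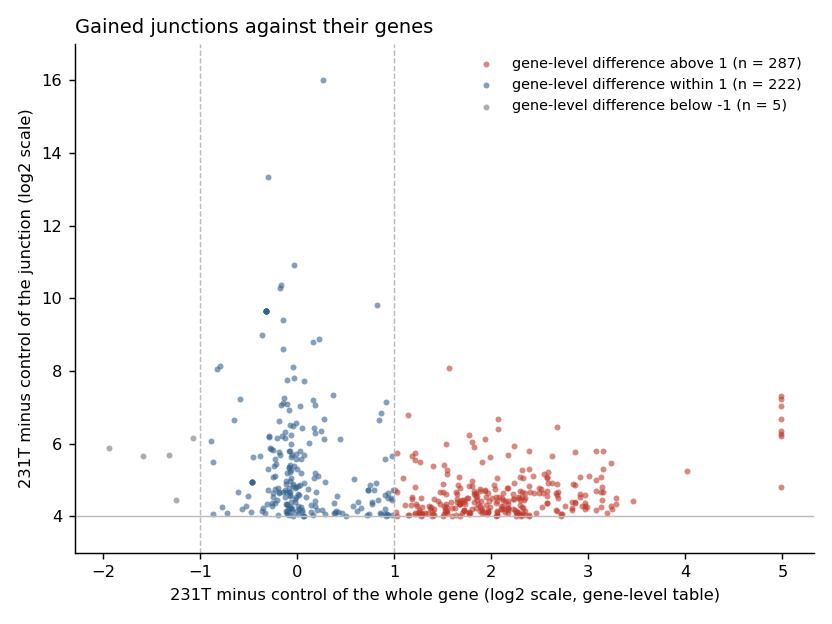
For each gained junction with a gene-level value, the 231T minus control difference of the junction (vertical axis, log2 scale) against that of its whole gene (horizontal axis, log2 scale); dashed lines mark -1 and 1. The 287 junctions of raised genes stay at or below 8.08, while those of genes within 1 reach 16.

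The largest junction differences lay in genes within 1. The median junction difference was 4.43 in raised genes, with a maximum of 8.08, and 4.86 in genes within 1, with a maximum of 16. Counted per gained junction, the median gene-level control value was 7.47 in raised genes and 4.97 in genes within 1. Over all genes with junctions and a gene-level value it was 4.87. Being within 1 therefore does not show that a gene was steadily expressed, which was not tested. Of the 93 junctions with a difference of 6 or more, 59 lay in genes within 1 and 16 in raised genes. The 59 include identical copies of the ZFP57 junction, which differs by 9.65 and is not several observations. In raised genes the junction exceeded the gene-level difference by a median of 2.45, and in genes within 1 by 4.88. The rule sets the junction difference at 4 or more and the division bounds the gene-level difference. The larger excess in genes within 1 therefore follows in part from the choice.

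The other probe sets of a gene contribute to its gene-level value, so a high share of them called higher in raised genes follows in part from how the genes were divided, and each share is given beside genes of the same kind without a gained junction. Of 5148 other tested junctions in raised genes with a gained junction, 2604 (50.6%) were called higher in 231T, against 35.7% of 13815 tested junctions in raised genes without one. Other junctions were counted for each gained junction, here and below, so genes with several gained junctions enter more than once. They include further gained junctions of the same gene, whose higher call the rule fixes, so the shares are not on equal terms. All 193 raised genes with a gained junction had at least 1 exon part called higher, as did 99.3% of the 972 raised genes without one (8.12% of all tested exon parts were called). The median of the highest exon-part difference per gained junction was 3.96. In genes within 1, 323 of 3679 other junctions (8.78%) were called higher, against 7.02% of the junctions in genes within 1 that held no gained junction. For 92 of these 222 gained junctions (41.4%) no other junction of the gene was called higher, for 117 (52.7%) no exon part was, and for 61 (27.5%) neither. Genes within 1 without a gained junction had no junction called higher in 62.4%, no exon part in 68.6% and neither in 51.5%. These shares count genes, whereas those above count gained junctions and leave the gained junction itself out. Genes within 1 carried a median of 11 junctions without a gained junction and 18.5 with a gained junction. The chances of a call were therefore unequal, and the higher shares cannot be read as a difference between these kinds of gene. For the gained junctions in genes within 1, the median of the highest exon-part difference was 0.95.

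TFRC, the transferrin receptor that brings iron into cells, held the most gained junctions, 8 of its 25. Its gene-level value was 12.56, 12.74 and 12.07 in the 231T arrays, 8.49, 7.46 and 7.91 in the PTX arrays and 7.27, 7.66 and 7.48 in the control arrays, so the whole gene rose by 4.98. The 8 gained junctions differed by 4.82 to 7.32, and 18 of 24 tested TFRC junctions and 28 of 36 tested exon parts were called higher. The highest of them had 19.93, 19.92 and 19.89 in the 231T arrays, 14.06, 12.42 and 12.72 in the PTX arrays and 12.16, 12.60 and 13.03 in the control arrays. The 231T values are the highest value found on each of those arrays.

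CDC6, which loads the replicative helicase onto DNA, had the next largest gene-level rise among the named member genes, 4.01. All 11 of its junctions were called higher in 231T, and only 1 was a gained junction. That junction had 11.08, 11.59 and 10.96 in the 231T arrays, 7.50, 6.93 and 6.39 in the PTX arrays and 5.38, 6.45 and 6.05 in the control arrays. CDC6 was also higher in PTX at gene level, with 10.02, 9.62 and 9.37 in the PTX arrays against 7.26, 8.26 and 8.44 in the control arrays, and the PTX difference of its gained junction, 0.98, was just inside the limit.

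Further genes held several gained junctions. RRM1, the large subunit of ribonucleotide reductase, had 6 with differences of 4.35 to 5.56, and 14 of its 30 tested junctions were called higher. PLRG1, a component of the spliceosome, also had 6, with differences of 4.36 to 5.09, while its gene-level value averaged 9.93 in 231T, 7.39 in PTX and 7.36 in control arrays. UAP1 (UDP-N-acetylglucosamine synthesis), XRCC5 (the larger Ku subunit of DNA end joining), NUP155 (nuclear pore), TARS (now TARS1, threonyl-tRNA synthetase), LCP1 (an actin-bundling protein), BTAF1 (a regulator of the TATA-binding protein), KNTC1 (kinetochore) and the transcription factor ETS1 had 4 each. Those with a gene-level value were raised by 1.88 to 3.08. In all, 370 genes held 1 gained junction, 48 held 2, 13 held 3 and 11 held 4 or more.

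ETS1 showed the largest scatter among these. Its gained junction with the largest difference had 12.16, 13.80 and 10.44 in the 231T arrays, 7.55, 5.89 and 6.06 in the PTX arrays and 5.74, 5.66 and 5.63 in the control arrays. In all 4 of its gained junctions 231T replicate 3 was the lowest of the 231T arrays. The ETS1 gene-level value had an SD of 1.15 over the 231T arrays, against 0.14 over the PTX arrays and 0.07 over the control arrays.

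**Figure D3:**
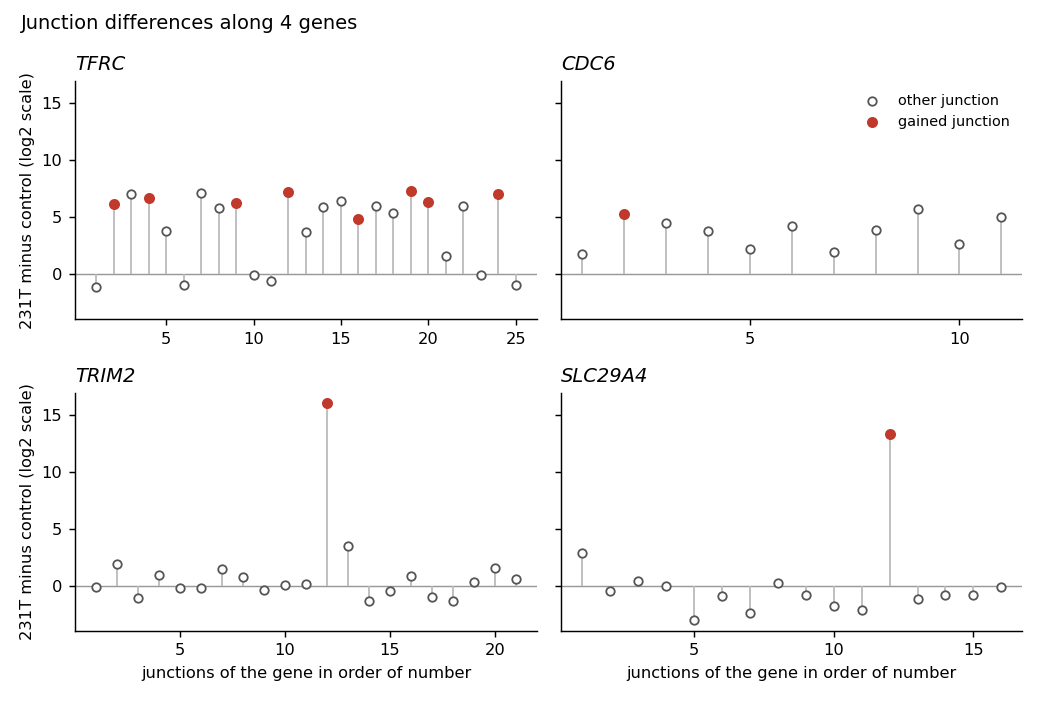
The 231T minus control difference (log2 scale) of every junction of TFRC, CDC6, TRIM2 and SLC29A4, in order of junction number; filled points are gained junctions and open points are the other junctions of the gene. TFRC and CDC6 have many high junctions, whereas in TRIM2 and SLC29A4 a single junction, at 16 and 13.35, stands above all others.

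Neighbouring junctions mostly belong to the same gene, so their shares also follow in part from the division by gene-level value. Numbers run along each chromosome code, and at least 1 of the nearest junctions on either side was called higher in 231T for 264 of 625 (42.2%), against 12.4% of all junctions. The share was 67.9% (195 of 287) where the gene was raised and 12.2% (27 of 222) where it was within 1. These counts include neighbours that were gained junctions themselves, whose call the rule fixes. Without such neighbours the share was 37.8% (236 of 625), against 12.1% of all junctions. It was then 59.9% (172 of 287) in raised genes and 11.3% (25 of 222) in genes within 1. For all junctions of genes without a gained junction the share was 49.9% in raised genes and 9.81% in genes within 1. A nearest junction was called lower for 16.8% of the gained junctions, against 28.1% of all junctions. Both nearest junctions were called higher for 59 gained junctions (9.44%), against 1.27% of all junctions, and 360 (57.6%) had a junction within 2 numbers called higher, against 21.3% of all junctions.

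**Figure D4:**
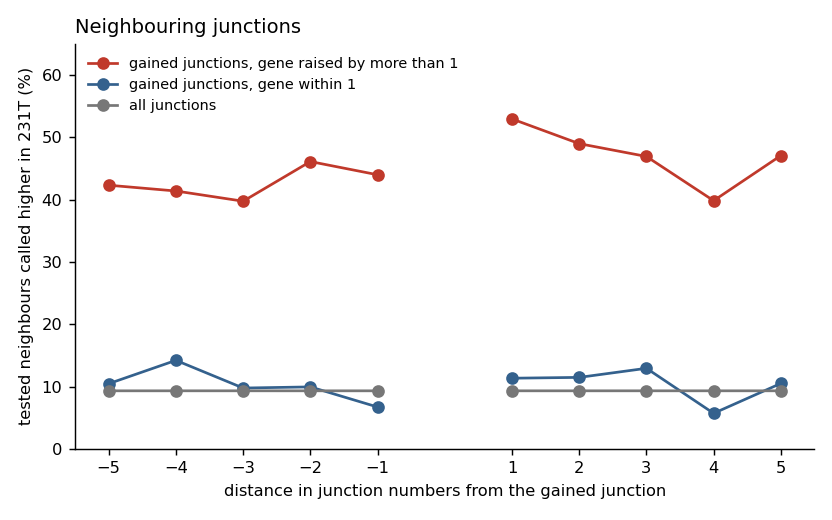
Share of tested neighbouring junctions called higher in 231T (limma, percent) at distances of up to 5 junction numbers on either side, for gained junctions in raised genes, for those in genes within 1, and for all junctions. The first lies between 39.8% and 53.0% at each distance, and the second between 5.70% and 14.2%, around the 9.31% of all junctions. Neighbours that are gained junctions themselves are included.

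The gained junctions with the most neighbours called higher were in PTPN11, TFRC and NUP107. The junction of PTPN11, which encodes the phosphatase SHP2, had 9 of 10 neighbours within 5 numbers called higher. It had 10.53, 10.88 and 9.96 in the 231T arrays, 7.88, 5.91 and 7.21 in the PTX arrays and 6.26, 6.59 and 5.86 in the control arrays. TFRC gave 3 junctions with 8 such neighbours, and the nuclear pore gene NUP107 gave 1. Gained junctions with consecutive numbers formed 15 runs that held 33 junctions. The longest were 3 runs of 3, in UAP1, XRCC5 and PLRG1. Among the 12 runs of 2, those of TFRC and of BIRC2, an inhibitor of apoptosis, had the largest median differences, 6.83 and 5.56.

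Exon parts are numbered separately from junctions, and placing them by relative position within a chromosome code or by equal number put junction and exon part in the same gene for 2.30% and 0.179% of the junctions, so no value is given from those placements. Placed instead by relative position within the same gene, a choice made after seeing the data, the levels of a junction and its nearest exon part correlated at Pearson's r = 0.386 across 286537 junctions, which share arrays and genes. With this placement the nearest exon part was called higher in 231T for 270 of 566 gained junctions (47.7%), against 11.7% of all junctions placed. The share was 78.0% (224 of 287) in raised genes and 9.91% (22 of 222) in genes within 1. Exon parts contribute to the gene-level value, so these 2 shares follow in part from the division of the genes. No such share is given for genes of the same kind without a gained junction.

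The 5 gained junctions in lowered genes ran against their genes, and were named after their values were seen. SEC31A, a coat protein of vesicles leaving the endoplasmic reticulum, had a gene-level average of 9.04 in 231T, 10.09 in PTX and 10.98 in control arrays, and 29 of its 48 tested junctions were called lower. Its gained junction had 10.27, 10.93 and 12.24 in the 231T arrays, 4.59, 5.41 and 4.56 in the PTX arrays and 5.11, 5.81 and 4.86 in the control arrays. CDON, EFEMP1, SLC25A23 and ABI3BP were the other 4, with junction differences of 6.16, 5.70, 5.66 and 4.46 and gene-level differences of -1.07, -1.33, -1.59 and -1.25. In none of the 5 was a nearest junction or the nearest exon part called higher, and a nearest junction was called lower in 4.

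A few genes held a lost junction beside a gained one. With the signs of the rule turned, 1246 junctions were lost in 231T. Of the 451 pairs of gene and chromosome code with a gained junction, 17 (3.77%) also held a lost junction, against 849 of 19241 others (4.41%), although member genes carried more junctions, with a median of 17 against 11. The balance of gained to lost moved with the scaling: 625 gained against 1246 lost as deposited, 1085 against 739 with each array centred on its median, and 839 against 889 after quantile normalization.

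The 5 junctions with the highest control means already had strong signal in control cells. They belonged to LDHB (a lactate dehydrogenase subunit), SF3B1 (a component of the U2 snRNP), DDX5 with the overlapping MIR3064, DDX52 (RNA helicases) and NUP155. The SF3B1 junction had 19.80, 19.83 and 19.36 in the 231T arrays, 17.42, 15.36 and 15.51 in the PTX arrays and 15.80, 15.36 and 15.48 in the control arrays. PTX replicate 1 lay above every control array there, and the other PTX arrays did not. LDHB, SF3B1, DDX52 and NUP155 were raised at gene level by 1.52 to 2.86.

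Among genes of the splicing machinery itself, TRA2A held 1 gained junction, with 9.59, 9.62 and 8.61 in the 231T arrays, 7.47, 5.06 and 5.57 in the PTX arrays and 4.98, 5.42 and 5.14 in the control arrays. TRA2B held none, although its gene-level value was 8.24 in 231T, 6.78 in PTX and 6.51 in control arrays (231T minus control 1.72 ± 0.25 SE; limma adjusted p = 0.00206). Of 8 measured SR protein genes, 7 were called higher in 231T at gene level, as were 17.8% of all genes tested, with a median difference of 1.91 over the 8, and SRSF4 was not, at 6.93 in 231T, 6.87 in PTX and 7.25 in control arrays. Their 126 junctions, all in these 8 genes, included 2 gained ones (1.59%, against 0.184% of all junctions), both in SRSF11. No junctions were counted for SRSF2 and SRSF9, the other genes of the list. Of 2 measured hnRNP genes HNRNPA2B1 was called higher, and HNRNPC averaged 14.16 in 231T, 13.75 in PTX and 14.17 in control arrays. The 40 junctions of these 2 genes included no gained one. No junctions were counted for HNRNPA1, HNRNPK and PTBP1, the other genes of that list.

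SRSF11, an SR-related protein, gave an example of 2 gained junctions of unlike size. The first had 14.10, 13.81 and 13.45 in the 231T arrays, 9.88, 6.31 and 8.38 in the PTX arrays and 6.97, 8.46 and 7.17 in the control arrays, a difference of 6.25. The second had 14.64, 14.48 and 14.28 in the 231T arrays, 11.89, 10.01 and 10.36 in the PTX arrays and 10.16, 10.98 and 10.10 in the control arrays, a difference of 4.05. The SRSF11 gene-level difference was 1.77. U2AF1, which recognises the 3′ splice site and was named after its value was seen, had a gained junction at 8.36, 8.23 and 8.71 in the 231T arrays, 3.34, 3.94 and 4.35 in the PTX arrays and 2.84, 2.89 and 3.30 in the control arrays, with a gene-level difference of 1.51.

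Gained junctions were spread unevenly over the chromosome codes. The share of a code's junctions that were gained was highest on code 11 (46 of 16946, 0.271%), code 7 (46 of 17358, 0.265%) and code 3 (53 of 20738, 0.256%). It was lowest on code 22 (2 of 7932, 0.0252%) and code 19 (9 of 15601, 0.0577%), with code X at 0.0639% (7 of 10963) and none of the 1344 junctions of code Y. Codes 19 and 22 together held 11 of 23533 junctions (0.0467%), against 0.195% on all other codes. With each array centred on its median the share was 0.160% on code 19, 0.164% on code 22 and 0.401% on code 11, and the order of the codes changed: codes 5, 3, 2 and 12, at 0.427%, 0.424%, 0.407% and 0.402%, lay above code 11, code 7 was at 0.340%, and code X, at 0.109%, lay below codes 19 and 22. Code 22 held junctions of APOBEC3G, a cytidine deaminase that restricts retroviruses, and CHEK2, a DNA damage checkpoint kinase, both in genes within 1. The gained junctions of code 11 came from 26 genes named by 1 symbol, and those of code 7 from 37. Of the tested junctions, 9.29%, 9.24% and 10.3% were called higher on codes 11, 7 and 3, and 8.09% and 7.09% on codes 19 and 22. Over all codes 9.31% were.

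**Figure D5:**
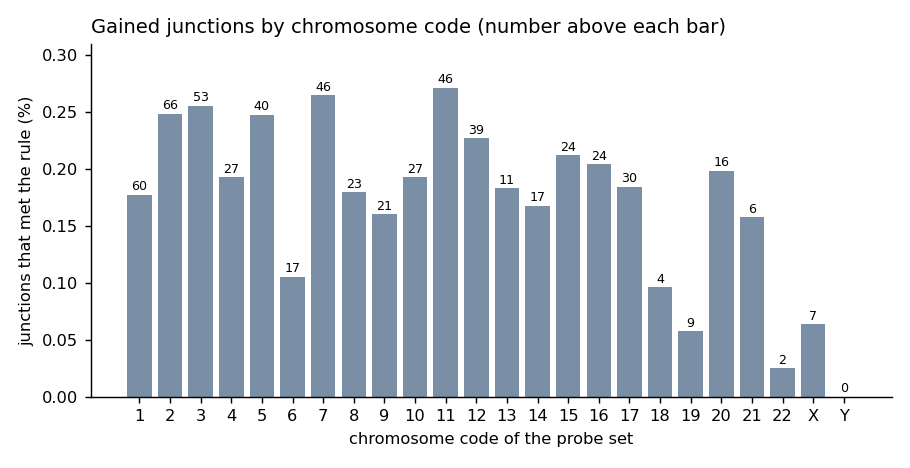
Percent of the junctions of each chromosome code that met the rule, with the number of gained junctions above each bar. Codes 11, 7, 3, 2 and 5 have the highest shares, at 0.248% or above, and codes 22, 19 and X the lowest above code Y, which has none.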

How the data were processed

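The authors deposited log2 values, for which the submitters' processing notes name RMA and Affymetrix Expression Console 1.3.1; array design, build and settings are not given in the sources used here. RMA corrects background, normalizes between arrays and summarises probes, so differences depend on that scaling. Of 18 records, the 9 exon-level ones gave the junctions and the 9 gene-level ones, with the same titles, the gene values. The number of arrays, 3 a group, limits the precision.

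Junctions and lists were chosen with earlier results of these data known. Gene symbols came from GEO's dated platform annotation, updated through RefSeq. Where a symbol had several gene-level probe sets, the one with the highest mean over the 9 arrays gave the gene value. Gene-level probe sets with several symbols were left out. limma 3.58.1 in R 4.3.3 fitted 3 group means over 684791 exon parts and junctions whose mean over 9 arrays reached the 25th percentile (3.89), with a separate fit for 50646 gene-level probe sets; calls used Benjamini-Hochberg adjusted p under 0.05, and the fit was tested on simulated data. Named junctions were the 10 largest, 5 on each side of the limit, the longest runs, the 5 highest in control and the 5 with most neighbours called; genes with several gained junctions, TRA2A, SRSF11, CDC6 and other examples were added after their values were seen. Alternatives were other scalings, filters, limits, a replicate block and leaving out each array.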

Additional observations from a re-analysis of the deposited data

How the results depend on the processing

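Of the 625 gained junctions, 624 were among the 1085 found with each array centred on its median, 606 among the 839 after quantile normalization, and 614 among the 940 with PTX and control arrays on the gene-level scale. The median difference of the original 625 was 4.99, 4.78 and 4.86 under these settings, and 4.47 with values above 16 set to 16. A limit of 3 gave 2346 junctions, a limit of 5 gave 194, and a PTX limit of 0.5 gave 341. Counting only genes raised by more than 2 gave 150 junctions instead of 287. Centring also moved the share of higher calls among all calls between 231T and control to 52.9%, and quantile normalization moved it to 48.3%, against 27.0% as deposited. The cause of these shifts was not tested.

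Leaving out 1 array gave 542 to 766 gained junctions. Their median difference was 4.52 to 4.62, among junctions newly chosen by the same limit and not the original ones. Of the newly chosen, 206 (without PTX replicate 2) to 405 (without 231T replicate 3) lay in raised genes, or 46.9% to 63.4% of those with a gene-level value. Of the original gained junctions, 617 to 623 were then called higher, 221 to 265 had a nearest junction called higher and 237 to 272 a nearest exon part called higher. Same-numbered arrays did not deviate together, with correlations of -0.14 to 0.08 between their deviations from group means. The main fit therefore used no pairing by number. Whether same-numbered arrays were cultured or processed together is not labelled. With the replicate number as a block, 623, 248 and 256 junctions met the same 3 counts, against 623, 264 and 270. None of the other alternatives to these 3 counts moved one by more than 1.5 times. Placing exon parts by position within a chromosome code or by equal number gave no usable value.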
